A study of Mus musculus with 12 samples.

Results

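Integrins and the immunoglobulin-like molecules they bind let macrophages stick to endothelium, to matrix and to each other. The 10 genes described here are Icam1 and Vcam1, which encode adhesion molecules of the immunoglobulin superfamily, and 8 integrin chains, namely Itgb2 with its α partners Itgal, Itgam and Itgax, Itgb1 with its α partner Itga4, and Itgav with Itgb3. They were chosen by name as integrin and adhesion genes, with earlier results of these data known, and all 10 were found among the 16920 genes of the deposited tables and passed the filter on low counts that left 12064 genes. mRNA had been sequenced from 12 libraries of mouse peritoneal macrophages, with 3 libraries in each of 4 groups, in a study of Ythdf1, which reads the N6-methyladenosine mark on RNA, in the response to bacterial lipopolysaccharide (LPS). The groups crossed the genotype label, WT or Ythdf1 knockout (KO), with the treatment, PBS or LPS. LPS was given at 1 µg/mL and both treatments lasted 6 h. All cells shared the C57BL/6 background and came from mice said in the study's methods to be 6 to 10 weeks old. The series record says that the cells were drawn into the peritoneum with 6% starch broth over 3 days and then kept in culture overnight, whereas the study's methods name thioglycollate. The KO mice carried a germline Ythdf1-/- allele made with CRISPR/Cas9, so that every cell type of the animal had it. The labels call the libraries of a group independent samples but do not say how many animals each holds, and p-values measure the spread between these libraries.

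An integrin is a pair of an α and a β chain that reaches the cell surface only as the pair. Itgb2 (CD18) is the β chain shared by the leukocyte integrins LFA-1 (with Itgal, CD11a), Mac-1 or complement receptor 3 (with Itgam, CD11b) and complement receptor 4 (with Itgax, CD11c), and ICAM-1 is the classical ligand of LFA-1 and Mac-1. Itgb1 (CD29) pairs with many α chains, and with Itga4 (CD49d) it forms VLA-4, the receptor of VCAM-1. The pair of Itgav (CD51) and Itgb3 (CD61) binds vitronectin and the bridging molecule MFG-E8, through which macrophages take up apoptotic cells. Icam1 is a classical target of NF-κB, the transcription factor that Toll-like receptor 4 switches on when it senses LPS.

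Libraries held 21546274 to 22017005 counts each. Levels are given as CPM, normalised read counts after edgeR's TMM scaling, on which a floor of 3 counts came to 0.105 to 0.187 CPM, and no group mean of a member lay that low. The 7 macrophage markers summed to between 16154 and 19005 CPM in every library, most of it Lyz2, whereas neutrophil markers summed to at most 16.02 CPM, T cell markers to at most 2.93 CPM and B cell markers to at most 1.92 CPM. The neutrophil markers Ly6g and Ngp had no entry among the deposited genes, and S100a8 made up most of the neutrophil sum. Markers of resident large peritoneal macrophages summed to 870.3 to 1146 CPM in PBS libraries and to 201 to 295 CPM in LPS libraries, but Cd93 made up nearly all of that sum, and of the 5 markers 2 passed as higher (Timd4 and Selp) and 3 as lower with LPS in WT. Their part in the LPS results was not tested. Ythdf1 itself, the targeted gene, was not lower in KO-labelled libraries, with 43.5 ± 1.54 CPM (SD, n = 3) in WT and 57.2 ± 1.53 CPM in KO-labelled cells under PBS, and 201.5 ± 9.37 against 198 ± 6.94 CPM under LPS. Ythdf1 passed as higher with the KO label under PBS (log2 fold change 0.40 ± 0.06, edgeR adjusted p = 1.3e-04) and did not pass under LPS (-0.03 ± 0.06). It rose less with LPS in KO-labelled cells (1.79) than in WT (2.21), a difference of -0.42 ± 0.08 (edgeR adjusted p = 0.0018). Gene counts did not check the KO label, and the groups are named here by their labels. Among WT LPS libraries, replicate 1 stood apart: its mean chi-square per gene was 32.7 and 25.5 against the other replicates, which differed from each other by 3.08. Replicates 2 and 3 of the KO LPS group differed by 16.7. Whether a lower value reflects fewer cells of a type or less RNA per cell cannot be told apart in these bulk samples.

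The stretches just upstream of 3 members are shown because these genes gave the clearest contrasts below: Icam1 rose steeply with LPS, exceeded only by Vcam1 among the members, and Itgam and Itgax, neighbours on chromosome 7 with 11055 bases between them, differed in how they went with the KO label. The sequences come from RefSeq for build GRCm38.p6, run 5′ to 3′ on the plus strand, and cover the 250 bases before the RefSeq start of each gene, at chr9:21015690-21015939 for Icam1, chr7:128062390-128062639 for Itgam and chr7:128129300-128129549 for Itgax. Capitals mark matches to NF-κB-like and STAT letters in Icam1, PU.1 letters in Itgam and AP-1 letters in Itgax.

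Icam1: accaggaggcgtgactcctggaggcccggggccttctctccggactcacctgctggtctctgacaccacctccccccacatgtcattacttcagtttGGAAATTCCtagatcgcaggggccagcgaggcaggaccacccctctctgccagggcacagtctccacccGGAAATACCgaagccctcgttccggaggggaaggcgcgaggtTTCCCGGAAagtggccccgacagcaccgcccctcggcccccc

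Itgam: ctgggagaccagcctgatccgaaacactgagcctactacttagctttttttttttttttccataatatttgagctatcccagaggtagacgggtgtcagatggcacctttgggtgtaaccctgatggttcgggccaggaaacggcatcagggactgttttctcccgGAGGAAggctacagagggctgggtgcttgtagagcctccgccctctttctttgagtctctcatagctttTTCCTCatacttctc

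Itgax: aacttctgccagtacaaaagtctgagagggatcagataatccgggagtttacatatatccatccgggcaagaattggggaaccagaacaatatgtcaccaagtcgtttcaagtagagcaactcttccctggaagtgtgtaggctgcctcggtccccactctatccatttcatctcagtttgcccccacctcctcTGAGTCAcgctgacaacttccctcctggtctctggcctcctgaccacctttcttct

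The Icam1 stretch held GGAAATTCC at bases 153 to 145 before the start, a match to the NF-κB-like letters GGAANTTCC that 0.813% of 32851 RefSeq promoters hold in the same window. A looser NF-κB-like spelling, GGNNTTTCC (4.93%), matched there too and, on the other strand, as GGAAATACC at bases 84 to 76. The stretch also held TTCCCGGAA at bases 42 to 34, a match to the STAT letters TTCNNNGAA, which 7.02% hold. The Itgam stretch held the PU.1 letters GAGGAA at bases 84 to 79 and, on the other strand, at bases 15 to 10, and 23.3% of promoters have at least 1 such match. The Itgax stretch held TGAGTCA at bases 56 to 50, a match to the AP-1 letters TGANTCA found in 6.75%. Both strands were searched for these letters and for the NF-κB-like GGNNTTCCC, the SP1 letters GGGCGG and the interferon-response-like GAAANNGAA, and the NF-κB-like spellings can overlap one another. The SP1 letters, which 32.7% of promoters hold, matched on the other strand as CCGCCC at bases 17 to 12 of Icam1 and 47 to 42 of Itgam, left in lower case above. The RefSeq promoter table used here held 6 members, of which Icam1 and Itgb1 matched at least 1 of the 3 NF-κB-like spellings, which 9.77% of promoters hold. The promoters of Vcam1, Itgal, Itgb2 and Itgb3 were not analysed here. A match describes these letters and not a bound site.

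Genes were set side by side per kilobase of merged exons, which join those of all annotated transcripts (3.05 kb for Itgb2, 13.98 kb for Itga4). This can exceed the length of the transcripts expressed, and orders and ratios between genes rest on it. Itgb2 was the most abundant member in all 4 groups, at 578 ± 1.90 CPM per kb (SD, n = 3) in WT PBS cells. Itgam (192 CPM per kb), Itgb1 (113 CPM per kb) and Itgax (68.5 CPM per kb) followed in that group, and none of these neighbours overlapped. Itgav (7.59 CPM per kb) came next. Below it Itga4 (5.41 CPM per kb) overlapped both Itgal (6.10 CPM per kb) and Icam1 (5.28 CPM per kb) and could not be ordered against them. Itgal lay just above Icam1 without overlap, at no less than 5.664 against no more than 5.656 CPM per kb. Itgb3 (3.74 CPM per kb) and Vcam1 (0.232 CPM per kb) came last. In WT LPS cells, Icam1 stood at 208 CPM per kb, within the range of Itgam (216 CPM per kb) and above Itgb1 (192 CPM per kb). Itgb3 was then the least abundant member, at 0.826 CPM per kb. In KO-labelled LPS cells, Itgb1 (228 CPM per kb) and Itgam (209 CPM per kb) overlapped, and Itgal (49.3 CPM per kb) lay above Itgax (33.2 CPM per kb), the reverse of their order in the other 3 groups.

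**Figure D1:**
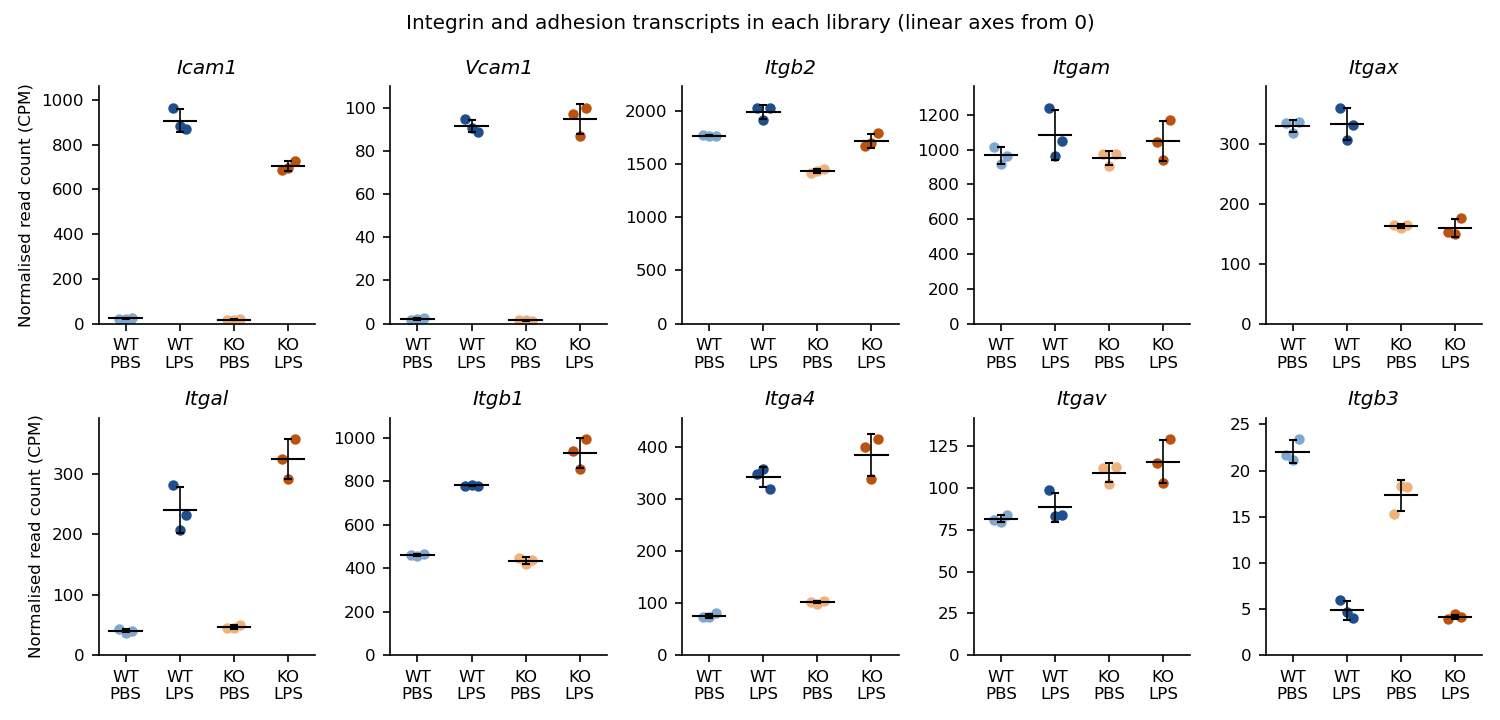
Normalised read count (CPM, linear axes from 0) of the 10 members in each of the 12 libraries. Points are libraries, horizontal lines group means and bars 1 SD (n = 3). Vcam1 and Icam1 lie near the axis under PBS and at 86.9 to 100.1 and 686 to 966 CPM under LPS, and Itgax is at 149 to 176 CPM in the KO-labelled libraries against 306 to 360.5 CPM in WT.

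To examine how LPS changed these transcripts in WT cells, LPS libraries were compared with PBS libraries. Icam1, Vcam1, Itgal, Itga4, Itgb1 and Itgb2 rose and Itgb3 fell, while Itgam, Itgax and Itgav did not pass the test. Of the 10 members, 6 passed as higher, beside 36.5% of all genes tested, and 1 as lower, beside 40.2%, or 7 in all beside 76.7%. The median log2 fold change of the members was 0.47, beside -0.05 for all genes tested. In KO-labelled cells the same count was 6 higher (38.8% of all genes) and 1 lower (41.1%), 7 in all beside 79.9%, with a median of 0.68 beside -0.04. The 7 members called were free of overlap between LPS and PBS libraries in both genotypes, as were 78.2% of all genes in WT and 81.3% in KO-labelled cells. With scaling by library totals alone the split moved to 4 higher and 5 lower in WT and to 5 and 5 in KO-labelled cells, and with upper-quartile scaling to 5 and 4 in each, because library totals and the upper quartile moved the median of all genes by -0.66 and -0.31 in WT and by -0.80 and -0.36 in KO-labelled cells. With RLE scaling it was 7 and 1 in WT and 6 and 1 in KO-labelled cells. All 12064 genes split into 2223 higher and 8247 lower in WT and 2202 and 8387 in KO-labelled cells with library totals, and into 3146 and 6520, and 3345 and 6557, with the upper quartile.

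Icam1 (gene 15894, chromosome 9 from 21015985 to 21028817, plus strand, GRCm38 as are all positions here) was at 22.4, 22.04 and 24.7 CPM in the WT PBS libraries and at 966, 886 and 871 CPM in the WT LPS libraries. In KO-labelled cells it was at 17.0, 16.01 and 19.2 CPM with PBS and at 686, 696 and 729 CPM with LPS. No library of one treatment came near the other. The log2 fold change by LPS was 5.30 ± 0.08 (SE) in WT (edgeR adjusted p = 2.7e-18) and 5.34 ± 0.08 in KO-labelled cells (edgeR adjusted p = 2.2e-18), a rise of 39.4-fold and 40.5-fold of the group means.

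Vcam1 (gene 22329, chromosome 3 from 116109949 to 116129688, minus strand), known above all from activated endothelium, was at 1.63, 2.11 and 2.43 CPM in WT PBS libraries and at 94.6, 90.8 and 88.9 CPM with LPS. In KO-labelled cells it was at 1.47, 1.86 and 1.17 CPM with PBS and at 97.1, 86.9 and 100.1 CPM with LPS. The PBS values rest on 33 to 68 counts a library, against 1419 to 1635 with LPS, and the treatments did not overlap. The log2 fold change was 5.47 ± 0.12 in WT and 5.97 ± 0.12 in KO-labelled cells. Endothelial markers moved in the same direction, from 12.1 to 14.0 CPM in WT PBS libraries to 53.5 to 79.3 CPM in WT LPS libraries, and Kdr made up most of that sum. Cdh5 went from 0.753 to 4.34 CPM in WT, and both Kdr and Cdh5 passed as higher with LPS in both genotypes, while group means were at most 0.187 CPM for Tie1 and 0.0193 CPM for Tek. Mesothelial markers summed to between 7.58 and 8.47 CPM in WT PBS libraries and to between 8.12 and 9.17 CPM in WT LPS libraries, and none passed. In KO-labelled cells they summed to 3.76 to 5.92 CPM with PBS and 6.37 to 7.52 CPM with LPS, and 2 of 6 passed as higher. Fibroblast markers summed to 75.1 to 88.6 CPM in WT PBS libraries and 118 to 132 CPM in WT LPS libraries, with 4 of 5 passing as higher in each genotype, and both dendritic cell markers tested, Zbtb46 and Xcr1, passed as higher with LPS. The part of other cells in the Vcam1 result was not tested.

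Among the β2 integrins, the α chain Itgal (gene 16408, chromosome 7 from 127296260 to 127335138, plus strand) stood out in its response to LPS. It was at 42.5, 37.2 and 40.5 CPM in WT PBS libraries and at 281, 207 and 231 CPM with LPS, and at 44.7, 44.8 and 49.6 CPM against 325, 290.2 and 357 CPM in KO-labelled cells. Every LPS library lay above every PBS library. The log2 fold change was 2.58 ± 0.11 in WT (edgeR adjusted p = 2.4e-12) and 2.80 ± 0.11 in KO-labelled cells (edgeR adjusted p = 7.0e-13). T cell markers, of which Cd4 and Cd8a made up most of the sum, added up to 1.88 to 2.93 CPM in PBS libraries and 1.04 to 1.97 CPM in LPS libraries, and Cd3e was at most 0.0207 CPM in any group mean. The part of T cells in the Itgal result was not tested.

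The shared β2 chain Itgb2 (gene 16414, chromosome 10 from 77530252 to 77565708, plus strand) changed far less. It was at 1771, 1765 and 1759 CPM in WT PBS libraries and at 2030.4, 1914 and 2030.0 CPM with LPS, and at 1414, 1432 and 1453 CPM against 1665, 1694 and 1792 CPM in KO-labelled cells. The treatments did not overlap in either genotype, and the log2 fold changes of 0.17 ± 0.05 (edgeR adjusted p = 0.0054) and 0.26 ± 0.05 (edgeR adjusted p = 1.8e-04) passed the test. Itgam (gene 16409, chromosome 7 from 128062640 to 128118491, plus strand) overlapped between treatments, with 919 to 1016 CPM against 964 to 1241 CPM in WT and 903 to 977 CPM against 938 to 1168 CPM in KO-labelled cells. Its log2 fold changes of 0.17 ± 0.09 and 0.14 ± 0.09 did not pass, but in WT Itgam passed as higher with RLE scaling (0.21), with the replicate block (0.16) and without WT LPS replicate 2 (0.24), and in KO-labelled cells without KO LPS replicate 2 (0.22). Itgax (gene 16411, chromosome 7 from 128129547 to 128150657, plus strand) had log2 fold changes of 0.02 ± 0.07 and -0.03 ± 0.07, and its treatments overlapped as well. The direction of Itgb2 and Itgam depended on the scaling. With library totals alone both passed as lower, at -0.49 and -0.50 in WT and -0.54 and -0.66 in KO-labelled cells. Itgax was then at -0.65 in WT. With upper-quartile scaling Itgb2 passed as lower in WT (-0.14) and Itgam in KO-labelled cells (-0.22). Itgax passed as lower in both genotypes with upper-quartile scaling (-0.30 in WT, -0.39 in KO-labelled cells) and library totals (-0.83 in KO-labelled cells).

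Itgb1 (gene 16412, chromosome 8 from 128685654 to 128733200, plus strand) was at 462, 457 and 467 CPM in WT PBS libraries and at 781, 785 and 779 CPM with LPS. In KO-labelled cells it went from 449, 419 and 438 CPM to 938, 859.9 and 995 CPM. The 2 treatments were far apart in both genotypes, with log2 fold changes of 0.76 ± 0.06 (edgeR adjusted p = 2.6e-09) and 1.098 ± 0.06 (edgeR adjusted p = 1.6e-11), and with library totals alone the WT change was 0.10 and no longer passed. Its partner Itga4 (gene 16401, chromosome 2 from 79255426 to 79333123, plus strand) was at 72.8, 73.3 and 80.5 CPM with PBS and at 349, 359 and 321 CPM with LPS in WT. In KO-labelled cells Itga4 was at 103, 99.1 and 103 CPM with PBS and at 402, 339 and 416 CPM with LPS. Its log2 fold changes were 2.18 ± 0.08 and 1.92 ± 0.08 and passed under all scalings tried. Both chains of VLA-4 and its ligand Vcam1 thus passed as higher with LPS.

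Itgb3 (gene 16416, chromosome 11 from 104608000 to 104670476, plus strand) was the one member that fell. It was at 21.7, 21.1 and 23.4 CPM in WT PBS libraries and at 6.01, 4.61 and 4.005 CPM with LPS, and at 15.3, 18.4 and 18.2 CPM against 3.93, 4.41 and 4.10 CPM in KO-labelled cells. No library overlapped, and the log2 fold changes were -2.18 ± 0.12 (edgeR adjusted p = 2.8e-11) and -2.06 ± 0.13 (edgeR adjusted p = 1.2e-10). Itgb3 is also a platelet integrin. Of the 5 platelet markers, Pf4 was at 106 ± 5.99 CPM in WT PBS and 142 ± 21.99 CPM in WT LPS cells and at 78.1 ± 3.65 and 100.4 ± 11.5 CPM in KO-labelled cells, higher with LPS and lower with the KO label in each comparison by the edgeR test. The other 4 markers were under 1 CPM in all groups, with group means of at most 0.0818 CPM for Itga2b, the platelet partner of Itgb3, and 0.0412 CPM for Gp9. The part of platelets in the Itgb3 result was not tested. Itgav (gene 16410, chromosome 2 from 83724397 to 83806916, plus strand), the partner of Itgb3 in macrophages, was at 79.8 to 83.8 CPM with PBS and 83.1 to 98.7 CPM with LPS in WT, and its log2 fold changes of 0.12 ± 0.08 and 0.09 ± 0.08 did not pass the test. With upper-quartile scaling and library totals Itgav passed as lower, at -0.19 and -0.55 in WT and -0.27 and -0.72 in KO-labelled cells.

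**Figure D2:**
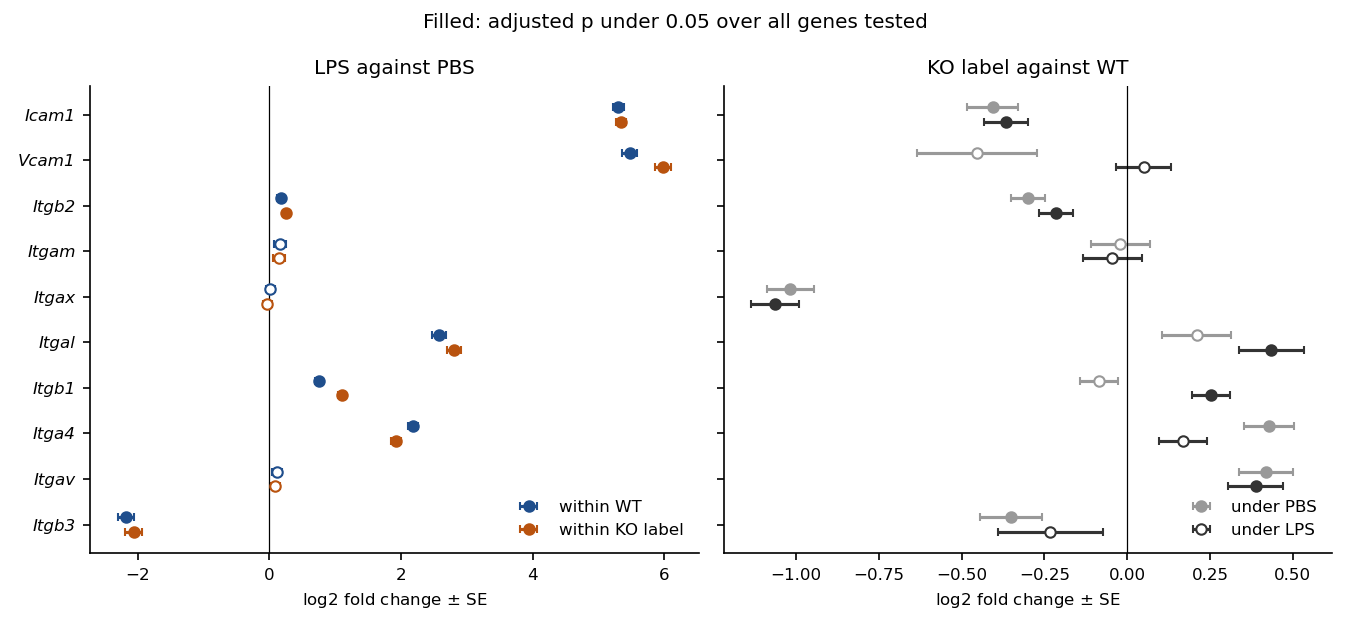
Log2 fold changes of the members with their standard errors from the edgeR fit, for LPS against PBS (left) and for the KO label against WT (right). Filled points passed an adjusted p of 0.05 over all 12064 genes. Icam1 and Vcam1 lie above 5 on the left and Itgb3 near -2, and Itgax lies near -1 on the right under both treatments.

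The KO label was next set against WT without a stimulus, in the PBS libraries. Itgax was lower by about 1 log2 unit, Icam1, Itgb2 and Itgb3 were lower by 0.30 to 0.41, and Itga4 and Itgav were higher by 0.43 and 0.42. Of the 10 members, 2 passed as higher, beside 12.3% of all genes, and 4 as lower, beside 13.0%, so that 6 changed beside 25.3% (3058 genes, but 2022 without KO PBS replicate 1 and 4629 in a fit of only the libraries compared). Groups free of overlap were found for 8 members, beside 48.1% of all genes. The median size of the log2 fold change, whatever its sign, was 0.38 for the members and 0.16 for all genes tested.

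Itgax was at 334, 318 and 336 CPM in WT PBS libraries and at 165, 159 and 164 CPM in KO-labelled ones. The lowest WT library lay far above the highest KO-labelled library, and the log2 fold change was -1.02 ± 0.07 (edgeR adjusted p = 5.5e-08), a level 0.494 times that of WT. Itgb2, its β chain, was lower by -0.30 ± 0.05 (edgeR adjusted p = 4.8e-04), from 1759 to 1771 CPM in WT to 1414 to 1453 CPM. Itgam, the gene beside Itgax on chromosome 7, overlapped between the genotypes at 919 to 1016 CPM and 903 to 977 CPM, with a log2 fold change of -0.02 ± 0.09. Itgal was at 37.2 to 42.5 CPM in WT and at 44.7 to 49.6 CPM in KO-labelled cells, free of overlap but with a log2 fold change of 0.21 ± 0.11 that did not pass (edgeR adjusted p = 0.16), although it passed in a fit of only the libraries compared (edgeR adjusted p = 0.0030) and without WT LPS replicate 1 (edgeR adjusted p = 0.049).

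Icam1 was at 22.04 to 24.7 CPM in WT PBS libraries and 16.01 to 19.2 CPM in KO-labelled ones, lower by -0.41 ± 0.08 (edgeR adjusted p = 0.0011). Vcam1 overlapped, and its value of -0.45 ± 0.18 did not pass (edgeR adjusted p = 0.080), although it passed without WT PBS replicate 1 (-0.56) and without KO PBS replicate 2 (-0.61). Itga4 was higher, at 99.1 to 103 CPM against 72.8 to 80.5 CPM, by 0.43 ± 0.07 (edgeR adjusted p = 6.0e-04), and so was Itgav, at 102 to 113 CPM against 79.8 to 83.8 CPM, by 0.42 ± 0.08 (edgeR adjusted p = 0.0014). Itgb3 went the other way from its partner Itgav, by -0.35 ± 0.09 (edgeR adjusted p = 0.012), a call that was lost without WT PBS replicate 3 (-0.31) or without KO PBS replicate 1 (-0.24). Itgb1 did not pass, at -0.09 ± 0.06, although its KO-labelled libraries (419 to 449 CPM) all lay below the WT libraries (457 to 467 CPM).

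Under LPS, Itgax, Icam1 and Itgb2 were again lower in KO-labelled libraries and Itgav again higher, and Itgal and Itgb1 were higher too. Of the 10 members, 3 passed as higher, beside 22.1% of all genes, and 3 as lower, beside 19.3%. Those 6 were also the members free of overlap between the genotypes, beside 45.6% of all genes. The median size of the change was 0.24 for the members and 0.27 for all genes tested, so that the count called, beside 41.4% of all genes, and the size were closer to those of other genes than under PBS, a difference that was not tested.

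Itgax was at 360.5, 306 and 332 CPM in the WT LPS libraries and at 153, 149 and 176 CPM in the KO-labelled ones, and the log2 fold change was -1.06 ± 0.07 (edgeR adjusted p = 2.0e-08). No genotype overlapped, and the level was 0.478 times that of WT. Icam1 was at 871 to 966 CPM in WT and 686 to 729 CPM in KO-labelled cells, lower by -0.37 ± 0.07 (edgeR adjusted p = 3.6e-04). Itgb2 was lower by -0.21 ± 0.05 (edgeR adjusted p = 0.0031), at 1665 to 1792 CPM against 1914 to 2030.4 CPM. These 3 calls held under all 20 alternatives tried in each treatment, with ranges of -1.15 to -1.003 for Itgax, -0.46 to -0.32 for Icam1 and -0.30 to -0.19 for Itgb2 under LPS.

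Itgal was at 281, 207 and 231 CPM in WT LPS libraries and at 325, 290.2 and 357 CPM in KO-labelled ones. The genotypes did not overlap, though WT replicate 1 (281 CPM) lay close to the lowest KO-labelled library (290.2 CPM). The log2 fold change was 0.44 ± 0.10 (edgeR adjusted p = 0.0025) and 0.57 without WT LPS replicate 1. Itgav was higher by 0.39 ± 0.08 (edgeR adjusted p = 0.0014) and Itgb1 by 0.25 ± 0.06 (edgeR adjusted p = 0.0022), the latter at 859.9 to 995 CPM against 779 to 785 CPM. Itga4, higher under PBS, was at 339 to 416 CPM against 321 to 359 CPM and did not pass at 0.17 ± 0.07 (edgeR adjusted p = 0.075), but passed without KO LPS replicate 2 (0.25). Vcam1 was at 86.9 to 100.1 CPM in KO-labelled cells and 88.9 to 94.6 CPM in WT, at a difference of 0.05 ± 0.08. Itgam (-0.05 ± 0.09) and Itgb3 (-0.23 ± 0.16) overlapped between the genotypes and did not pass.

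Fibroblast markers also differed with the KO label, summing to 75.1 to 88.6 CPM in WT PBS libraries and 32.9 to 46.2 CPM in KO-labelled ones, and to 118 to 132 CPM against 57.0 to 69.5 CPM under LPS. All 5 of them passed as lower with the KO label under both treatments. Mesothelial markers summed to 7.58 to 8.47 CPM against 3.76 to 5.92 CPM under PBS and to 8.12 to 9.17 CPM against 6.37 to 7.52 CPM under LPS. The endothelial marker Kdr was higher with the KO label under PBS, at 20.2 ± 0.685 CPM against 11.8 ± 0.954 CPM. Of the 5 markers of resident large peritoneal macrophages, 2 passed as higher with the KO label under PBS (Cd93 and Icam2) and 3 as lower (Gata6, Timd4 and Selp), and under LPS 3 passed as lower (Cd93, Gata6 and Timd4). Cd93, which carried the sum, was at 895 ± 31.4 CPM in WT and 1117 ± 28.9 CPM with the KO label under PBS, and Gata6 was at 2.75 ± 0.166 CPM against 1.12 ± 0.300 CPM. Of the 7 macrophage markers, Cd14 passed as higher with the KO label under both treatments, Adgre1 as lower under PBS, and Cd68, Csf1r and Mertk as lower under LPS, with Mertk at 98.3 ± 9.76 CPM against 233 ± 11.95 CPM. The neutrophil marker S100a8 passed as higher with the KO label under LPS (0.49), and the eosinophil marker Siglecf as lower (-0.86). The mast cell marker Kit passed as lower under PBS (-1.39) and as higher under LPS (1.54). The part of these markers and cells in the differences of the members was not tested. Markers of dendritic cells, which also bear Itgax, summed to at most 1.19 CPM under PBS and at most 3.61 CPM under LPS, and their sums overlapped between the genotypes. One of the 4, Zbtb46, passed as lower with the KO label under PBS, at 0.293 ± 0.0521 CPM against 0.622 ± 0.0774 CPM in WT, without overlap. The part of dendritic cells in the Itgax result was not tested.

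To see whether the response to LPS itself differed between the genotype labels, the interaction was tested. Of the members, Itgb1 alone passed, as higher, beside 9.78% of all genes higher and 8.26% lower (18.0% in all): it rose by 1.098 in KO-labelled cells and by 0.76 in WT, a difference of 0.34 ± 0.08 (edgeR adjusted p = 0.0088). The difference was positive under all alternatives run (0.20 to 0.39) but missed the threshold with library totals alone (0.20) and without KO PBS replicate 2 (0.27). Vcam1 had a larger but less certain difference, of 0.50 ± 0.20 (edgeR adjusted p = 0.094), which passed without WT PBS replicate 1 (0.61) or KO PBS replicate 2 (0.65). The difference for Itga4 was -0.26 ± 0.10 (edgeR adjusted p = 0.10) and that for Itgal 0.23 ± 0.14 (edgeR adjusted p = 0.32). The latter passed at 0.36 without WT LPS replicate 1, and that for Itga4 passed at -0.31 with upper-quartile scaling and -0.40 with library totals alone. All genes with an interaction split into 1180 higher and 996 lower, into 932 and 1229 with upper-quartile scaling and into 627 and 1945 with library totals. For Itgax the difference was -0.05 ± 0.10 and for Icam1 0.04 ± 0.10, and neither passed (edgeR adjusted p = 0.81 and 0.85).

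**Figure D3:**
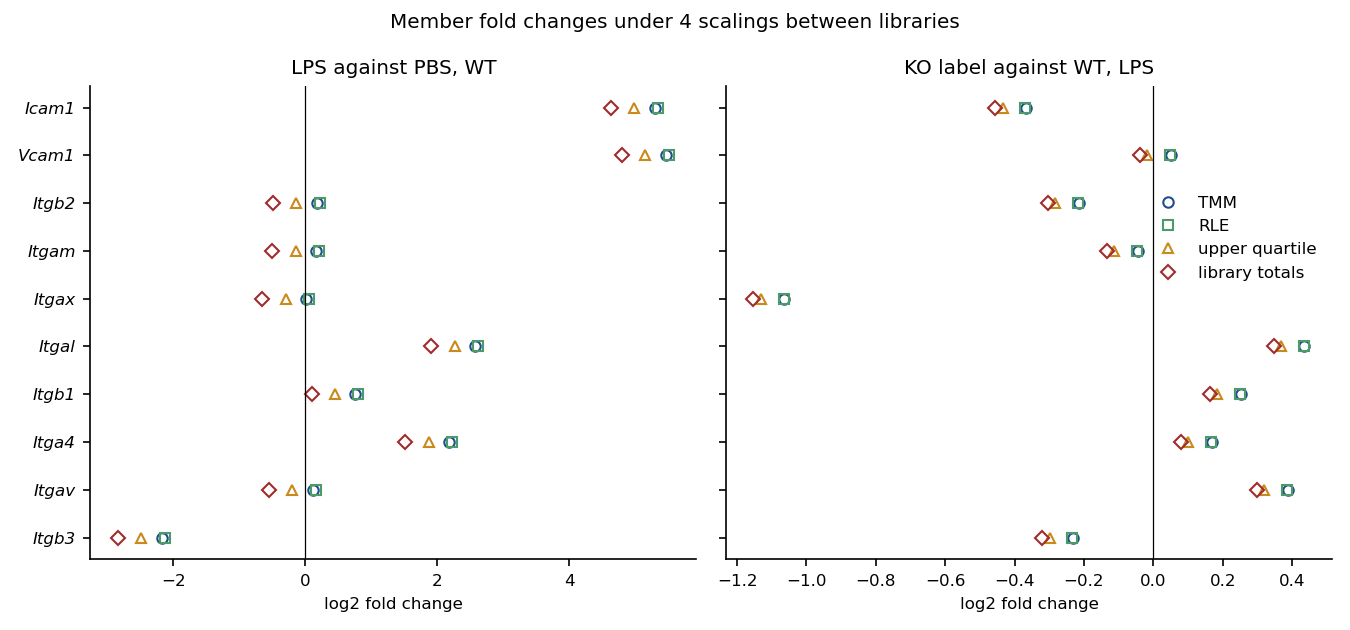
Log2 fold changes of the members under 4 ways of scaling between libraries (TMM as in the text, RLE, upper quartile and library totals), for LPS against PBS in WT (left) and the KO label against WT under LPS (right). On the left all members shift together, so that Itgb2, Itgam, Itgax and Itgav cross 0 (Itgb2 from 0.17 with TMM to -0.49 with library totals), and on the right the shift is small and only Vcam1 crosses 0.

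Ratios between members of the same library do not depend on the scaling between libraries, and were computed per length. Among the 3 α chains that compete for Itgb2, Itgam made up 72.0% ± 0.571 (SD, n = 3) of the transcripts in WT PBS cells, Itgax 25.7% ± 0.603 and Itgal 2.28% ± 0.0540. In WT LPS cells the share of Itgal was 11.3% ± 0.382, that of Itgax 21.6% ± 0.922 and that of Itgam 67.1% ± 0.571. In KO-labelled PBS cells the share of Itgam was 82.2% ± 0.368 and that of Itgax 14.7% ± 0.318, though the level of Itgam itself overlapped with WT. Under LPS, KO-labelled cells had 16.9% ± 0.148 Itgal, 11.4% ± 0.414 Itgax and 71.7% ± 0.346 Itgam. In none of the 4 comparisons of treatments or genotypes did the libraries overlap in any of these 3 shares.

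**Figure D4:**
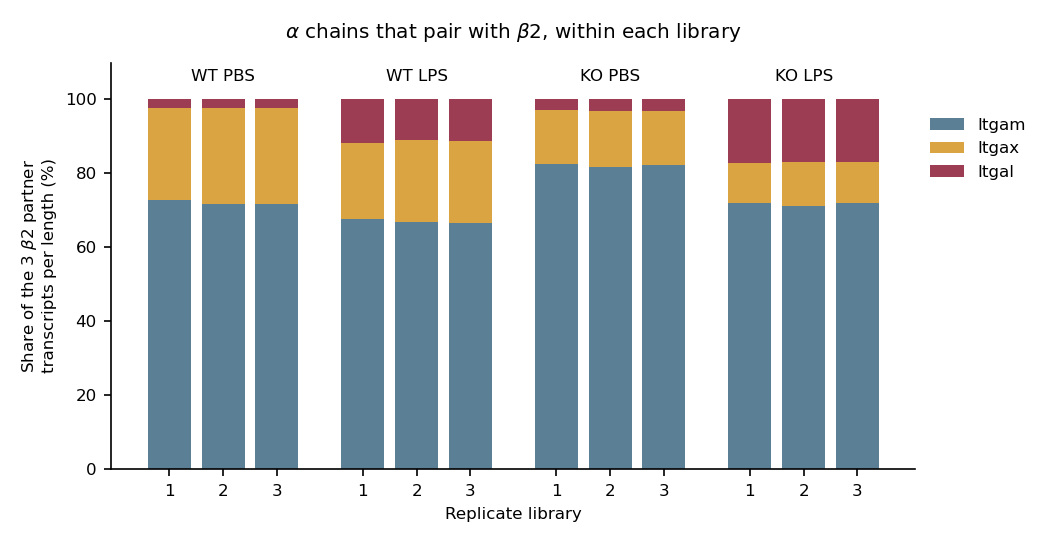
Share (%) of Itgam, Itgax and Itgal among the transcripts of these 3 β2 partner chains, per length, in each of the 12 libraries. The Itgax segment is 24.999% to 26.1% in WT PBS libraries and 11.003% to 11.8% in KO-labelled LPS libraries, and the Itgal segment is wider with LPS in both genotypes.

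Itgal over Itgax, LFA-1 against complement receptor 4, moved most. It was 0.0931, 0.0856 and 0.0882 in WT PBS libraries, 0.570, 0.494 and 0.508 in WT LPS libraries, 0.198, 0.206 and 0.221 in KO-labelled PBS libraries and 1.55, 1.43 and 1.48 in KO-labelled LPS libraries. All 4 groups were apart from each other. Itgb1 over Itgb2 was 0.196 ± 0.00260 in WT PBS, 0.294 ± 0.0111 in WT LPS, 0.227 ± 0.00935 in KO-labelled PBS and 0.406 ± 0.0226 in KO-labelled LPS cells, also without overlap in any comparison. Itgb2 over the sum of its 3 partners, by contrast, was 2.17 ± 0.0939, 2.05 ± 0.195, 2.04 ± 0.0871 and 1.94 ± 0.160 in the same order and overlapped in all 4 comparisons. Itgav over Itgb3 went from 2.03 ± 0.0585 to 10.1 ± 1.25 with LPS in WT and from 3.49 ± 0.479 to 15.4 ± 2.29 in KO-labelled cells. Itga4 over Itgav went from 0.712 ± 0.0244 to 2.996 ± 0.304 in WT and from 0.717 ± 0.0224 to 2.56 ± 0.113 in KO-labelled cells. Icam1 over Vcam1, the last of 9 ratios computed, overlapped between the genotypes under PBS but was 20.2 ± 0.522 in WT and 15.2 ± 1.00 in KO-labelled cells under LPS. With 3 libraries against 3, a two-sided exact permutation test cannot go below p = 0.10, which all comparisons free of overlap reached (0.12 after Benjamini-Hochberg adjustment over 36 comparisons), so none of them passes a threshold of 0.05.

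Over the 12 libraries, the profile most like that of Vcam1 belonged to Adora2a, an adenosine receptor, at a root-mean-square difference of 0.20 log2 units, and the nearest to Icam1 were Gbp9 and Adora2a, at 0.19 each. Icam1 ranked 14th of 8723 genes from Vcam1 (0.31) and was its nearest member. Itgax lay nearest to Cbr2 and Ccnd1 (0.15 each), Itgal to Mgat4a and Sec24b (0.10 each), Itga4 to Alpk1 and Nsd3 (0.09 each), Itgb1 to Arcn1 (0.04) and Itgb3 to Jup (0.12). Among members, Itgb2 and Itgam were each other's nearest, at 0.15, although genes that are no members lay closer to either.

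Beyond the members, 75 further genes of integrin biology were listed, of which 61 passed the filter. With LPS, 40 of the 61 passed as higher and 9 as lower in WT (41 and 10 in KO-labelled cells), beside 36.5% and 40.2% of all genes in WT (38.8% and 41.1%), a split of 26 and 23 with library totals alone in each genotype, where all genes split into 2223 higher and 8247 lower in WT. Of the 10 other integrin chains tested, 6 rose and 2 fell in WT. Itga9, which like Itga4 pairs with Itgb1 and binds Vcam1, rose from 2.27 to 25.2 CPM (log2 fold change 3.46 ± 0.13), and Itga6, a laminin receptor chain, fell from 171 to 37.7 CPM (-2.18 ± 0.11). Itgb5, a further partner of Itgav, fell from 248 to 107 CPM (-1.22 ± 0.08). Itgb8, another one, had group means under the floor with PBS, and with LPS WT cells reached 6.04 CPM and KO-labelled cells 12.9 CPM (KO against WT 1.1002 ± 0.17). Of the chains that pair with Itgav, Itgb3 and Itgb5 thus passed as lower and Itgb1 and Itgb8 as higher with LPS, while Itgav itself did not pass with TMM.

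Beside the 36.5% of all genes higher and 40.2% lower with LPS in WT, 10 of the 13 other leukocyte receptors tested rose and 2 fell, among them F11r (JAM-A), a further ligand of LFA-1, by 3.31 ± 0.13, while Cd99l2 fell by 0.86 on the log2 scale. Of the 9 matrix and soluble ligands, 5 rose and 2 fell, with Thbs1 (thrombospondin, 1.85 ± 0.11) and Fn1 (fibronectin, the matrix ligand of VLA-4, 0.68 ± 0.21) higher and Emilin1 (-1.83 ± 0.09) and Mfge8 (-0.23 ± 0.05) lower. The change of Fn1 missed the threshold with upper-quartile scaling (0.37) and library totals (0.02). With 1 library left out, that change ran from 0.37 to 0.87 and still passed. Of the 29 activators, adaptors and kinases, 19 rose and 3 fell, and the kinase Src rose by 6.62 ± 0.14, while Rasgrp2, an activator of Rap1, fell (-2.48 ± 0.19), as did Parvg (-0.95 ± 0.07).

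With the KO label, 6 of the 61 were higher and 10 lower under PBS, and 17 higher and 14 lower under LPS, beside 12.3% and 13.0% of all genes under PBS and 22.1% and 19.3% under LPS. The split under LPS turned to 13 higher and 18 lower with upper-quartile scaling and with library totals, and that under PBS to 7 and 7 with library totals. All genes moved too, under LPS from 2663 higher and 2327 lower to 2077 and 2921 with the upper quartile and 1919 and 3150 with library totals, and under PBS from 1486 and 1572 to 1991 and 1241 with library totals. The 16 genes called under PBS became 9 without WT PBS replicate 2 or 3, 10 without KO PBS replicate 1, 27 without WT LPS replicate 1 and 34 in a fit of only the libraries compared. Mfge8, the bridging ligand of Itgav with Itgb3 or Itgb5, had the largest difference in both, at 802, 798 and 784 CPM in WT against 319, 319 and 335 CPM in KO-labelled PBS libraries (-1.29 ± 0.06, edgeR adjusted p = 2.4e-10) and -1.42 ± 0.06 under LPS. Vcl (vinculin) and Ptk2 (focal adhesion kinase) were lower under PBS, by -0.78 ± 0.07 and -0.71 ± 0.08. Lims1, an adaptor at integrin tails, was higher under PBS and LPS, by 0.36 ± 0.05 and 0.67 ± 0.05. Itga5, the fibronectin receptor chain that pairs with Itgb1, was higher under LPS by 0.43 ± 0.12, and so were Cd44, by 0.54 ± 0.05, and Thbs1, by 0.95 ± 0.10. Itga9 (-0.65 ± 0.11) was lower under LPS.

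**Figure D5:**
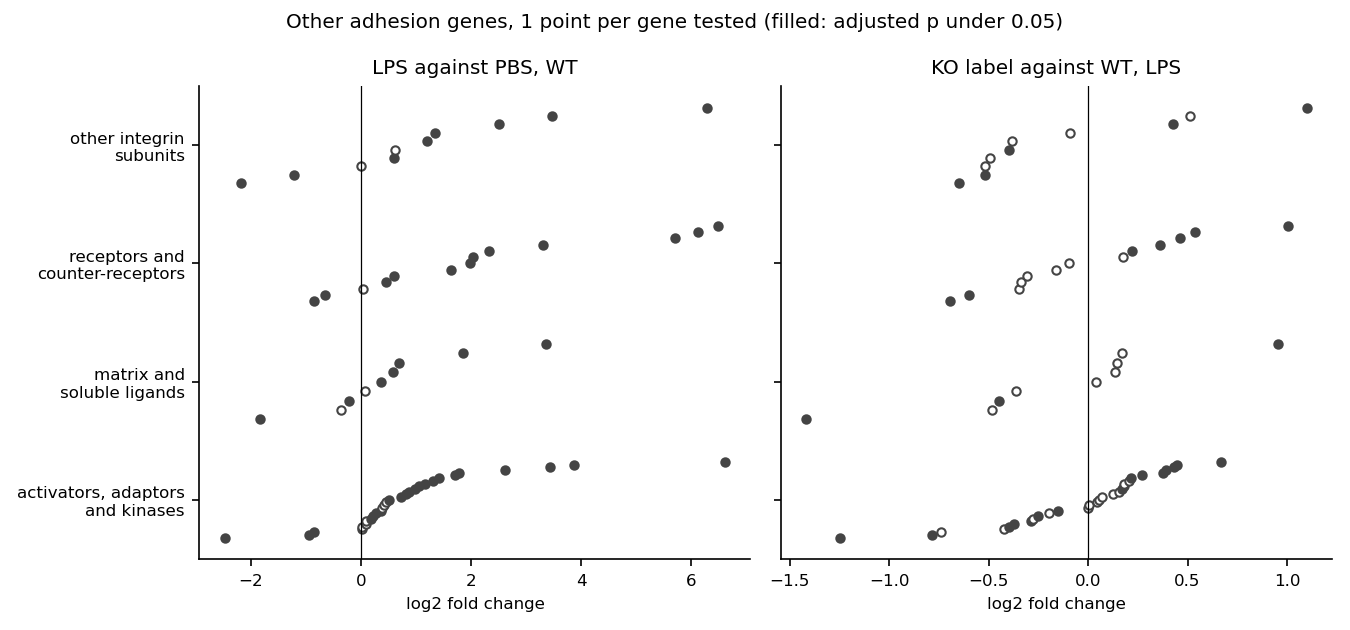
Log2 fold changes of the 61 further adhesion genes tested, 1 point per gene in 4 lists, for LPS against PBS in WT (left) and for the KO label against WT under LPS (right). Filled points passed an adjusted p of 0.05. On the left most points lie above 0 (40 higher, 9 lower) and on the right they lie on both sides (17 higher, 14 lower with TMM, 13 and 18 with upper-quartile or library-total scaling), and the point of Itgb8 on the left rests on PBS groups whose means lie under the floor.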

How the data were processed

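The authors deposited unscaled expected counts for each gene, from BGISEQ-500 single-end reads of 50 bases. The submitters' processing notes name Bowtie2, RSEM 1.3.1 and GRCm38.p6, whereas the study's methods name STAR and HTSeq, and both are given here because the files do not settle it. Decimals, which arise where reads are shared between genes, were present for Itgam, Itga4 and Itgb1 in 12 libraries, Itgb3 in 6 and Itgax in 3. No strand setting is stated, so reads of overlapping antisense genes cannot be told apart.

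Counts were rounded and fitted in R 4.3.3 with edgeR 4.0.16 (limma 3.58.1), by a robust quasi-likelihood model with 1 mean for each of the 4 groups over all 12 libraries, after filterByExpr and TMM scaling. Tests were two-sided and p-values adjusted by Benjamini-Hochberg over 12064 genes, with a threshold of 0.05. TMM factors ran from 0.744 to 0.808 in LPS and from 1.26 to 1.31 in PBS libraries. The floor of 3 counts covers counting error only, whereas SDs and SEs cover the spread between libraries. Lengths and positions are from GENCODE for GRCm38. In simulated data edgeR recovered 88% of 200 genes changed by 1 log2 unit with LPS in WT, and 83% in the interaction. The simulated data kept all other genes equal between groups, unlike the LPS comparison here, so they say nothing about the choice of scaling.

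Named genes are the members, Ythdf1, and in each further list the 2 with the largest change each way past the threshold, at 5 CPM or more in the higher group and free of overlap (no overlap rule for the interaction). Likeness was the root-mean-square difference of centred log2 CPM over genes averaging at least 5 CPM. Members and lists were chosen with earlier results of these data known. Alternatives were RLE, upper-quartile and library-total scaling, DESeq2 1.42.0, no filter, a minimum of 10 counts in all libraries, a block for the replicate number, leaving out each library, and fits without the groups not compared. Results for some genes of these lists are not reported here.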

Additional observations from a re-analysis of the deposited data

Results flagged for a closer look

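The response to LPS differed between the genotype labels, by the interaction test of edgeR, for 1 of 10 members and 17 of 61 further adhesion genes, beside 18.0% of all genes tested. The 17 split into 12 higher and 5 lower, and with library totals alone into 8 and 9, where all genes split into 627 and 1945. Of the further genes, the 10 named by the rule on size are given here because they passed. Itgb1, the β1 chain, had an interaction of 0.34 on the log2 scale (adjusted p = 0.0088). Of the receptors, Itga5 (0.62), Cd44 (0.44) and Cd47 (0.38) rose more with LPS in KO-labelled than in WT cells, as did the ligand Thbs1 (0.63), the kinase Src (1.02) and the adaptor Vcl (0.95). Vcl rose by 1.17 in KO-labelled cells from a lower PBS level and by 0.22 in WT. Src too started from a lower PBS level, 1.31 CPM in KO-labelled cells against 2.36 CPM in WT. Its LPS libraries overlapped between the genotypes, at 203 to 282 CPM in WT and 255 to 272 CPM in KO-labelled cells. Itga6 (-0.66), Itgb5 (-0.75), Cd99l2 (-0.38) and Parvg (-0.42) fell more in KO-labelled cells. Cd99l2, with the weakest test of these (adjusted p = 0.043), missed the threshold with DESeq2 (-0.40), without a filter, with the replicate block and with any of 7 libraries left out. Itga5 missed it with any of 5 libraries left out (0.53 to 0.56, adjusted p of at most 0.053), and Cd47 with library totals alone (0.24) and without KO PBS replicate 1 (0.30). Explanations were not tested.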

How the results depend on the processing

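Of 50 results for members (10 genes in 5 comparisons), 24 kept their direction and side of the threshold under every alternative, among them the LPS responses of Icam1, Vcam1, Itgal, Itga4 and Itgb3 and the lower Itgax, Icam1 and Itgb2 in KO-labelled cells. The LPS result turned with upper-quartile scaling and library totals for Itgam (-0.15 and -0.50 in WT, -0.22 and -0.66 in KO-labelled cells), Itgb2 (-0.14 and -0.49, -0.10 and -0.54) and Itgav (-0.19 and -0.55, -0.27 and -0.72), and in WT for Itgax (-0.30 and -0.65, also -0.023 without a filter and -0.022 with at least 10 counts in every library), while in KO-labelled cells Itgax passed as lower with both (-0.39 and -0.83). Fn1 in KO-labelled cells turned to -0.17 with library totals. Near-zero values that turned, none past the threshold, were KO against WT for Itgam under PBS (0.028 with totals) and Vcam1 under LPS (-0.019 upper quartile, -0.039 totals), and interactions of Icam1 (-0.0064, -0.10), Itgb2 (-0.052 totals) and Itgb3 (-0.018 totals). The cause was not tested beyond the shift of all genes that these scalings bring.

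Leaving out 1 library turned only values near 0: LPS in WT for Itgax (-0.045 to 0.073), LPS in KO-labelled cells for Itgax (-0.11 to 0.017) and Itgav (-0.00014 to 0.16), KO against WT for Itgam under PBS (-0.056 to 0.047) and LPS (-0.13 to 0.064) and for Ythdf1 under LPS (-0.056 to 0.011), and interactions of Icam1 (-0.055 to 0.086), Itgam (-0.11 to 0.085), Itgax (-0.12 to 0.015), Itgav (-0.12 to 0.055) and Itgb3 (-0.0054 to 0.30). Under PBS, genes changed with the KO label numbered 3058, 2022 to 3887 with a library left out (2022 without KO PBS replicate 1) and 4629 in a fit of only the libraries compared. Further adhesion genes changed there numbered 16, 9 to 27 (9 without WT PBS replicate 2 or 3, 10 without KO PBS replicate 1, 27 without WT LPS replicate 1) and 34. Members with an interaction numbered 1, 1 to 2 with a library left out (2 without WT PBS or WT LPS replicate 1) and 2 with upper-quartile scaling.

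Same-numbered libraries deviated together no more than others (correlations of -0.08 to 0.13). With 3 libraries a group, this check cannot settle whether the numbers pair samples, and the labels do not say. With the replicate number as a block, 8 members changed with LPS in WT, Itgam (0.16, adjusted p = 0.047) being added, and 7, 6, 6 and 1 in the other comparisons. The interaction could not be fitted on only the libraries compared. Depth limits Vcam1 under PBS, with at most 68 counts a library.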
